A study of Mus musculus with 17 samples.

Results

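The EphB receptors (Ephb1, Ephb2, Ephb3, Ephb4 and Ephb6) and the ephrin-B ligands (Efnb1, Efnb2 and Efnb3) were followed as a family in total RNA-Seq of cultured mouse lung fibroblasts in which one receptor of the family, Ephb4, had been targeted for deletion. Members were taken by gene symbol, a rule that uses no measured value, although earlier results of these data were known when the family was picked. The 5 receptors and 3 ligands together made 8 of the 55421 genes in the deposited table. The question was whether the ligands and the paralogs of the targeted receptor differed with the targeting of Ephb4, with lung injury, or with both.

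Cells came from 17 mice, each of which gave 1 library, so replicates were separate animals. Every mouse had the genotype Ephb4f/f; Col1a2-CreERT2, with both Ephb4 alleles floxed and a Cre recombinase that tamoxifen switches on. At 4 weeks of age Ephb4-CKO mice received 4-hydroxytamoxifen (1 mg per day on 5 days) and Ephb4 control mice received corn oil. At 6 weeks they were given PBS or bleomycin (1.2 U/kg), an agent used to injure lung tissue and model fibrosis, and lungs were collected on day 14. The groups were Ephb4 control with PBS (n = 4), Ephb4 control with bleomycin (n = 4), Ephb4-CKO with PBS (n = 5) and Ephb4-CKO with bleomycin (n = 4).

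Several features limit these groups as a model. Cre was driven by Col1a2 and acts only in cells that use that promoter, and control mice carried Cre as well. Cells were grown from digests of whole lung and passaged once, and no sort is named. The Ephb4 exons that Cre removes are not given in the sources used here. The Ephb4 count covers all exons of the gene, so it is not a full check of the deletion.

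Eph receptors are receptor tyrosine kinases and ephrins are their membrane-bound ligands, so the pair signals where cells touch. Binding starts forward signalling in the cell with the receptor and reverse signalling in the cell with the ephrin-B, whose cytoplasmic tail recruits adaptor proteins. The system is best known for guiding axons, keeping cell populations apart, and separating arteries, which carry ephrin-B2, from veins, which carry EphB4.

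Library totals ran from 66540022 to 120554468 counts (median 93075927). Levels are given as CPM, a gene's counts scaled to a common library size after TMM adjustment of the totals. A count of 3, treated as the floor of detection, equalled 0.0229 to 0.0516 CPM depending on the library, which covers counting error only. The labels call the cells primary fibroblasts. Summed over the 16 fibroblast markers listed (collagens, Pdgfra, Dcn and others, of which 14 passed the filter used below for testing), libraries held 6176 to 13471 CPM in Ephb4 controls after bleomycin, 47.4 to 8080 in controls after PBS, 92.1 to 2392 in Ephb4-CKO after PBS and 78.8 to 2009 in Ephb4-CKO after bleomycin. The 19 macrophage markers, all of them tested, summed to 1428 to 19676 CPM in Ephb4 controls after bleomycin and to 10688 to 49064 CPM in libraries of the other groups. No listed marker of either kind was at 0 across a whole group, so macrophage transcripts were present in all groups of these cultures. In bulk RNA, fewer cells of a type and less RNA per cell cannot be told apart. In the bleomycin groups, control mouse 2 and Ephb4-CKO mice 1 and 2 had sex-linked transcripts that disagreed with their labelled sex, and values without these 3 libraries are given beside the main comparison.

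Ephb4 (ENSMUSG00000029710), the targeted receptor and the binding partner of ephrin-B2, lies on the forward strand at chr5:137350109-137378669 (GRCm38). Its level was 24.5, 4.06, 33.9 and 2.35 CPM in control PBS mice 1 to 4 and 66.0, 13.3, 35.8 and 41.0 CPM in control bleomycin mice 1 to 4. In Ephb4-CKO mice it was 7.81, 23.9, 9.09, 4.06 and 4.10 CPM after PBS, and 14.2, 9.66, 10.3 and 5.00 CPM after bleomycin. Transcript from the gene was therefore counted in every Ephb4-CKO library. The bleomycin groups overlapped only because control mouse 2 (13.3 CPM) was below Ephb4-CKO mouse 1 (14.2 CPM), and the other 3 Ephb4-CKO libraries were below all 4 controls. Sex-linked transcripts of both libraries that made this overlap disagreed with their labelled sex, so their group labels are less certain. After PBS the ranges overlapped widely, and Ephb4-CKO mouse 2 lay far above its 4 group mates.

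Ephb2 (ENSMUSG00000028664, chr4:136647539-136835988, reverse strand) is the EphB receptor best studied at excitatory synapses. It stood at 17.9, 3.48, 18.7 and 0.0203 CPM in control PBS mice, the last being 2 counts and so under the floor, and at 27.9, 16.9, 19.0 and 23.8 CPM in control bleomycin mice. Ephb4-CKO mice had 0.371, 21.1, 8.05, 2.23 and 0.590 CPM after PBS and 2.71, 13.8, 9.61 and 0.429 CPM after bleomycin. All 4 Ephb4-CKO libraries were below all 4 control libraries after bleomycin, and within each of the 4 groups Ephb2 ranged over more than 10 CPM.

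Ephb3 (ENSMUSG00000005958, chr16:21204755-21223305, forward strand), which acts with Ephb2 in axon guidance and in placing cells along the intestinal crypt, gave 6.33, 1.44, 13.9 and 0.315 CPM in control PBS mice and a narrow 16.0, 18.5, 14.9 and 19.0 CPM in control bleomycin mice. After PBS, Ephb4-CKO mice had 0.531, 9.39, 5.83, 0.861 and 0.376 CPM, and after bleomycin they had 2.28, 5.29, 4.83 and 0.655 CPM. Control libraries after bleomycin were thus above every library of the 3 other groups. Ephb3 entered the test only through control libraries, since those over 10 CPM before scaling were 1 control PBS and 4 control bleomycin libraries. That filter favoured a difference between the groups.

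Ephb6 (ENSMUSG00000029869, chr6:41605482-41620509, forward strand) encodes a receptor whose kinase domain is inactive. It did not pass the filter, at 1.03, 0.319, 4.16 and 0.0710 CPM in control PBS mice, 7.60, 2.85, 1.21 and 1.304 CPM in control bleomycin mice, 0.247, 0.980, 1.03, 0.157 and 0.690 CPM in Ephb4-CKO PBS mice and 0.611, 0.475, 1.58 and 0.214 CPM in Ephb4-CKO bleomycin mice. After bleomycin 3 of 4 Ephb4-CKO libraries were below all 4 controls, and Ephb4-CKO mouse 3 was above control mice 3 and 4. Ephb1 (chr9:101922128-102354693, reverse strand), a receptor of the nervous system, was at 3 counts or fewer in 9 of 17 libraries and at 0 in 5. Its highest value, 0.917 CPM from 102 counts, was in control bleomycin mouse 2, so it was barely detected at this depth.

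**Figure D1:**
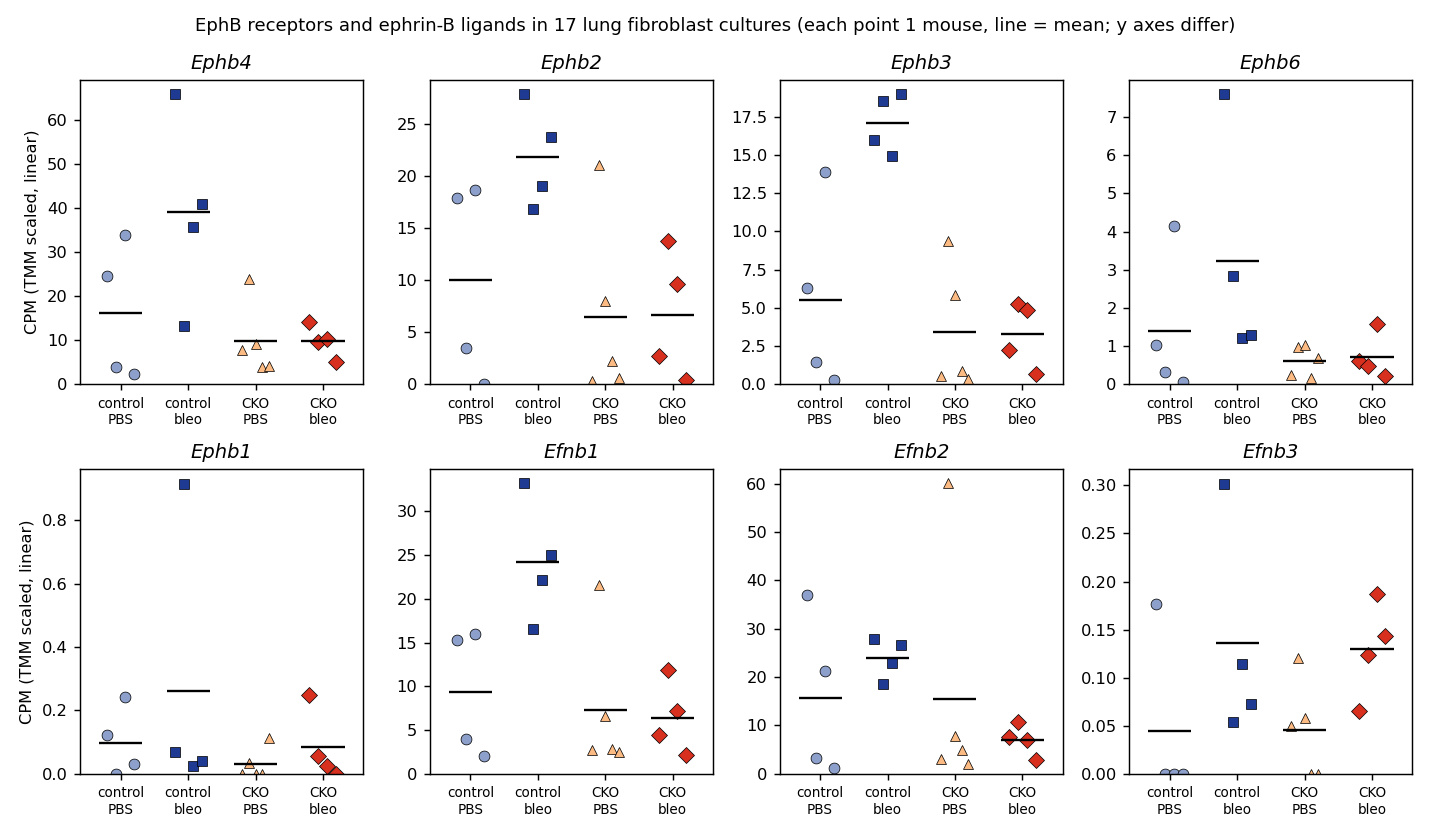
CPM (TMM scaled, linear axes that differ between panels) of the 8 EphB and ephrin-B genes in the 17 libraries, by group. Each point is 1 mouse and each line a group mean. The 4 Ephb4 control bleomycin libraries sit together and above all Ephb4-CKO bleomycin libraries for Ephb2, Ephb3, Efnb1 and Efnb2, whereas in the PBS groups single mice, such as Ephb4-CKO PBS mouse 2 with 60.1 CPM of Efnb2, stand far above the rest.

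Among the ligands, Efnb1 (ENSMUSG00000031217, chrX:99136130-99148991, forward strand), which patterns skeletal and craniofacial tissue, was at 15.3, 4.01, 16.0 and 1.999 CPM in control PBS mice and at 33.3, 16.5, 22.2 and 24.97 CPM in control bleomycin mice. Ephb4-CKO mice had 2.74, 21.6, 6.61, 2.80 and 2.53 CPM after PBS and 4.43, 11.9, 7.13 and 2.11 CPM after bleomycin. All control bleomycin libraries lay above all control PBS libraries, the closest being 16.5 and 16.0 CPM, and above all Ephb4-CKO bleomycin libraries.

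Efnb2 (ENSMUSG00000001300, chr8:8617434-8661242, reverse strand), the arterial ligand of EphB4, was at 36.9, 3.18, 21.3 and 1.10 CPM in control PBS mice and at 27.8, 18.5, 22.9 and 26.6 CPM in control bleomycin mice. Ephb4-CKO mice had 2.95, 60.1, 7.82, 4.83 and 2.06 CPM after PBS and 7.55, 10.7, 6.98 and 2.80 CPM after bleomycin. The highest Efnb2 value of the series was in an Ephb4-CKO library after PBS, whereas after bleomycin every Ephb4-CKO library was below every control library. The annotation places 3 other genes on the same strand within Efnb2, and reads shared with them cannot be told apart in these counts. Efnb3 (chr11:69554092-69560205, reverse strand), an ephrin of the nervous system, reached at most 0.302 CPM (36 counts) and was at 0 in 5 libraries.

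Compared with Ephb4 controls after bleomycin, Ephb4-CKO libraries after bleomycin held less of all 5 members that passed the filter, but none of the 5 passed the test. The ratio of means for Ephb4 itself was 0.250 (9.77 ± 3.76 against 39.0 ± 21.6 CPM, SD, n = 4 each). The fitted log2 difference was -1.998 (SE 0.79, 95% interval -3.69 to -0.31, adjusted p = 0.220, edgeR quasi-likelihood test, Benjamini-Hochberg adjusted across 10481 genes). Efnb1 was at 6.39 ± 4.21 against 24.2 ± 6.98 CPM, a log2 difference of -1.92 (SE 0.80, interval -3.62 to -0.23, adjusted p = 0.223). For Efnb2 the means were 7.01 ± 3.25 and 24.0 ± 4.19 CPM and the log2 difference -1.77 (SE 1.07, interval -4.05 to 0.50, adjusted p = 0.331). The targeted receptor and its ligands thus had estimates of nearly one size. Of the paralogs, Ephb3 was at 3.26 ± 2.19 against 17.1 ± 1.95 CPM, with a log2 difference of -2.39 (SE 1.12, adjusted p = 0.247). Ephb2 was at 6.63 ± 6.16 against 21.9 ± 4.94 CPM, with a log2 difference of -1.72 (SE 1.38, adjusted p = 0.456). Ephb6, fitted without a filter, had a log2 difference of -2.22 (SE 1.01, adjusted p = 0.455).

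With 0 of 5 tested members called in this comparison, the share of all genes called was 0.00% as well. At an unadjusted p under 0.05 the count was 2 of 5 (Ephb4 and Efnb1) with edgeR, beside 20.2% of all genes, 3 of 5 with DESeq2, beside 26.0%, and 5 of 5 with limma voom, beside 23.0%. The 5 include Ephb3, whose filter favoured a difference, so none of these counts is an even comparison with its share. The groups did not overlap for Ephb2, Efnb1 and Efnb2, while 23.1% of all genes did not overlap, or 12.2% in the lower direction. Ephb3 did not overlap either, but it had entered through control libraries alone and is left out of that count. The log2 differences of Ephb4, Ephb2, Efnb1 and Efnb2 were below 0, as was that of Ephb3, and as were 49.3% of those of all genes tested, whose median was 0.0093. DESeq2, which called 3.81% of all genes here, and limma voom, which called 0.00%, also called none of the members. Leaving out the 3 libraries that disagreed with their labelled sex, the log2 differences were -2.68 for Ephb4, -2.58 for Efnb1 and -2.44 for Efnb2, and with the number series in the mouse names (11 or 12, the second holding all 4 control bleomycin mice) as a covariate they were -1.50, -1.36 and -0.77. None passed in either fit, and the fit without those libraries held fewer bleomycin mice in both groups.

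**Figure D2:**
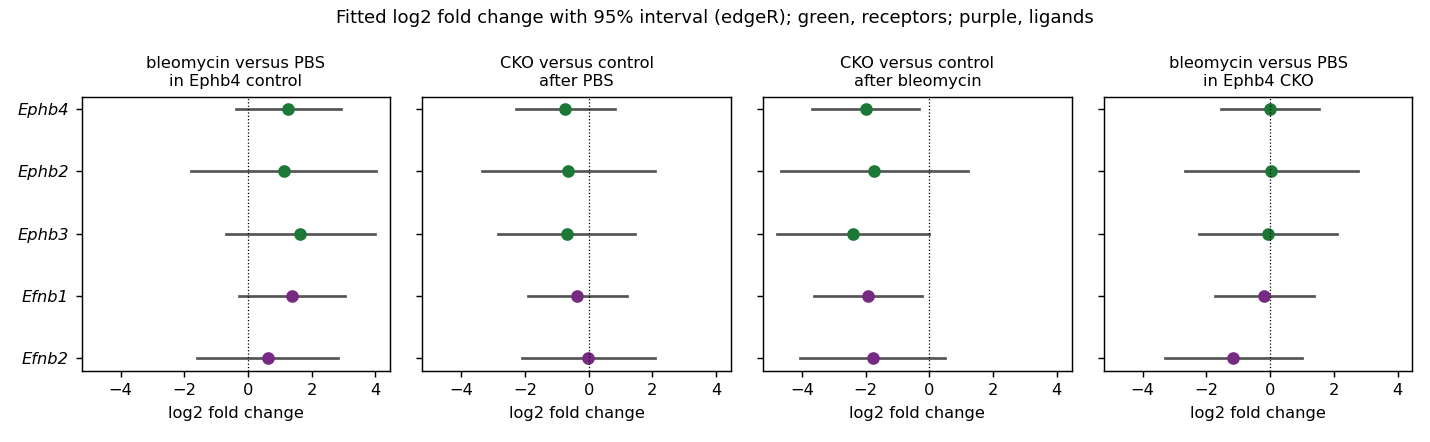
Log2 differences of the 5 members that passed the filter in the comparisons between groups, from edgeR, with 95% confidence intervals as bars and 0 as the line of no difference. After bleomycin all 5 estimates for Ephb4-CKO against control lie below 0, from -2.39 (Ephb3) to -1.72 (Ephb2), and the intervals of Ephb4 and Efnb1 end below 0.

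In Ephb4 control mice, the 5 members were higher after bleomycin than after PBS by estimate, as were 44.5% of all genes, and again none passed the test. The log2 differences were 1.64 for Ephb3 (SE 1.09, adjusted p = 0.483), 1.38 for Efnb1 (SE 0.78, adjusted p = 0.417), 1.27 for Ephb4 (SE 0.78, interval -0.38 to 2.92, adjusted p = 0.442), 1.13 for Ephb2 (SE 1.36, adjusted p = 0.692) and 0.62 for Efnb2 (SE 1.04, adjusted p = 0.788). Ephb6, fitted without a filter, had 1.29 (SE 0.98, adjusted p = 0.612). Called members were 0 of 5 beside 0.00% of all genes. At an unadjusted p under 0.05 the count depended on the tool, with 0 of 5 in edgeR (14.3% of all genes), 0 of 5 in DESeq2 (17.9%) and 5 of 5 in limma voom (16.9%). Ephb3, which entered through control libraries alone, is again among the 5 in each of these counts. After adjustment neither DESeq2 (1.58% of all genes) nor limma voom (0.00%) called a member. The groups did not overlap for Efnb1, nor for Ephb3, whose filter favoured a difference, beside 8.91% of all genes or 5.72% in the higher direction. Single mice moved these estimates. Without control PBS mouse 3 they were 1.95 for Ephb4, 2.70 for Ephb3 and 2.82 for Ephb6, without control PBS mouse 4 they were 0.71 for Ephb2 and 0.23 for Efnb2, and without control bleomycin mouse 1 the Ephb6 estimate was 0.48. The PBS group was the more variable: Ephb4 spread from 2.35 to 33.9 CPM there, and Ephb4 was above all PBS libraries in 3 of 4 bleomycin libraries. The contrast shares the control bleomycin group with the genotype comparison above, so a set of high values in those 4 libraries enters both with opposite sign. It was also partly confounded with the number series, since all 4 control bleomycin mice but only 1 control PBS mouse were of series 12. With the number series as a covariate the Efnb2 estimate turned below 0.

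After PBS, Ephb4-CKO and control libraries were not told apart in any member. Estimates ran from -0.73 for Ephb4 (9.79 ± 8.20 against 16.2 ± 15.5 CPM, SE 0.72, interval -2.27 to 0.81, adjusted p = 1.00) to -0.0079 for Efnb2 (SE 0.98, interval -2.11 to 2.09). The called members were 0 of 5, beside 0.00% of all genes, with 0 of 5 at an unadjusted p under 0.05 (1.99% of all genes) and none called by DESeq2 (0.00954% of all genes) or limma voom (0.00%). Without Ephb4-CKO PBS mouse 2 the Ephb4 estimate was -1.37, and without control PBS mouse 3 it was -0.045. Within Ephb4-CKO mice, bleomycin against PBS gave -0.0024 for Ephb4 (SE 0.73, interval -1.55 to 1.54), 0.039 for Ephb2 (SE 1.28) and -1.15 for Efnb2 (SE 1.01), each with an adjusted p of 1.00. Here too 0 of 5 were called (0.00% of all genes), 0 of 5 had an unadjusted p under 0.05 (0.964% of all genes) and none was called by DESeq2 (0.00954%) or limma voom (0.00%). Without Ephb4-CKO PBS mouse 2, which held 60.1 CPM of Efnb2, the Efnb2 estimate turned to 0.67.

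The test of whether the bleomycin difference itself depended on genotype gave -1.27 for Ephb4 (SE 1.06, adjusted p = 0.916), -1.77 for Efnb2 (SE 1.45, adjusted p = 0.916) and -1.09 for Ephb2 (SE 1.87, adjusted p = 0.942). No member was called, as for 0.00% of all genes, and none had an unadjusted p under 0.05 (3.46% of all genes). DESeq2 and limma voom, each with 0.00% of all genes, called none either. Without Ephb4-CKO PBS mouse 2 the Ephb4 value was -0.63, and without control PBS mouse 3 it was -1.97. A difference between the genotypes in their bleomycin response was therefore not detected for any member.

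Levels of different genes were compared per length, as RPKM over the union of a gene's exons. Ephb4 was the most abundant receptor of the family in every group. In controls after bleomycin the order of mean RPKM was Ephb4 (8.41 ± 4.66), Efnb1 (7.02 ± 2.02), Efnb2 (3.496), Ephb3 (2.57), Ephb2 (1.74), Ephb6 (0.859), Efnb3 (0.0427) and Ephb1 (0.0374). Ephb4 and Efnb1 did not differ beyond their spread, since Ephb4 exceeded Efnb1 in 3 of 4 of these libraries and in 2 of 4 control libraries after PBS. In Ephb4-CKO libraries after bleomycin Ephb4 still had the highest mean, at 2.11 ± 0.81 RPKM. After PBS the mean of Efnb2 (2.27 RPKM) exceeded that of Ephb4 (2.11 RPKM) in Ephb4-CKO mice, but only 1 of 5 libraries showed that order.

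The share of Ephb4 in the summed RPKM of the 5 EphB receptors sets the count of the targeted receptor beside those of its paralogs. It is no test of the deletion, because the count covers all exons and the cultures held macrophage transcripts. Ephb4 itself averaged 66.3% of the sum over the 17 libraries, which damps any change in its share. The share was 66.5%, 60.3%, 60.8% and 87.5% in control PBS libraries, and 68.2%, 36.4%, 65.4% and 63.5% in control bleomycin libraries. In Ephb4-CKO libraries it was 90.6%, 60.6%, 52.3%, 71.6% and 74.5% after PBS, and 80.2%, 50.7%, 53.6% and 85.1% after bleomycin. The ranges overlapped, and the mean share was higher in Ephb4-CKO. After bleomycin it was 67.4 ± 17.7% in Ephb4-CKO against 58.4 ± 14.7% in controls, a difference of 9.02 percentage points (p = 0.429, 2-sided exact permutation test over 70 assignments, smallest p possible 0.0286). After PBS the difference was 1.12 points (p = 0.921, the same exact test over 126 assignments, smallest p possible 0.00794). Both tests were chosen after the levels had been seen. The summed EphB level itself was 13.6 ± 5.44 RPKM in controls after bleomycin and 3.33 ± 1.38 RPKM in Ephb4-CKO after bleomycin, and the summed ephrin-B level 10.6 and 2.91 RPKM. Efnb2 made up 33.6 ± 2.88% of the ephrin-B sum in the former group and 36.9 ± 6.76% in the latter.

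**Figure D3:**
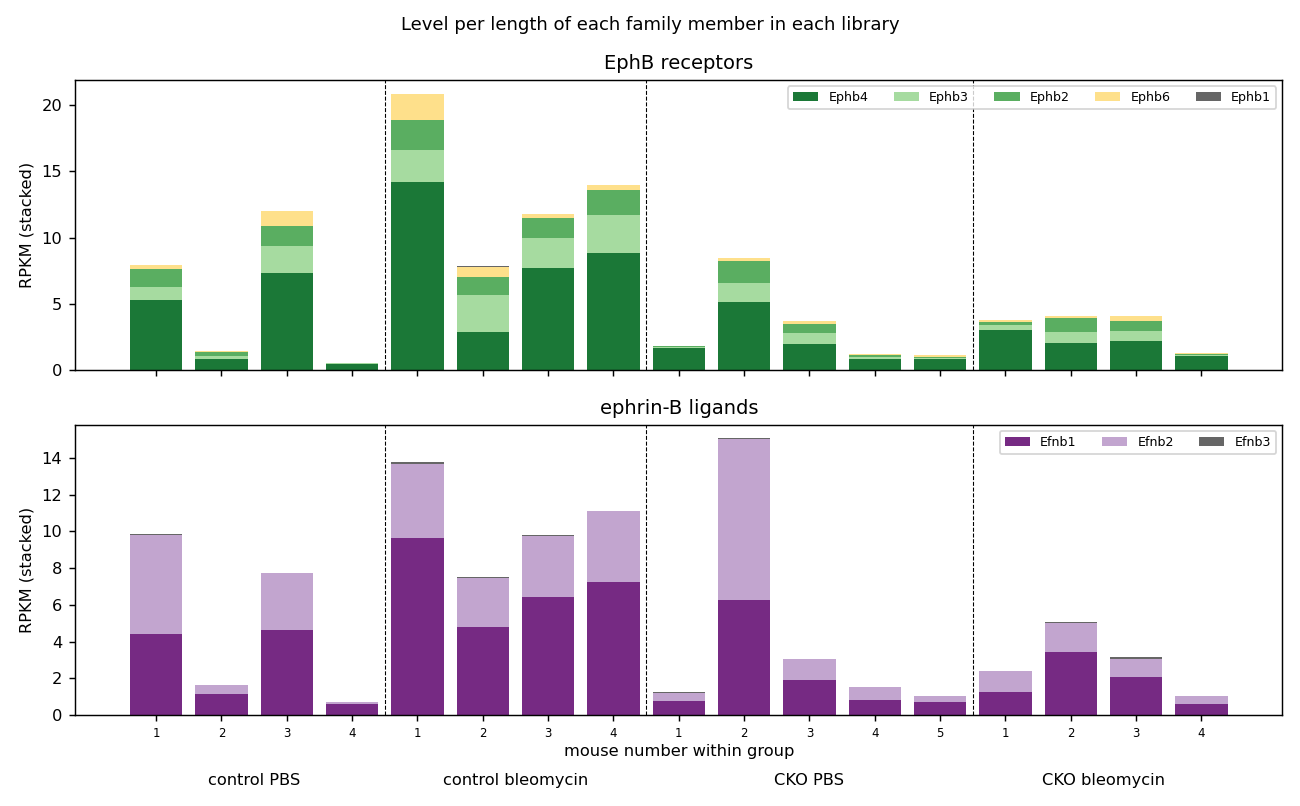
RPKM (linear axis) of the EphB receptors (upper panel) and ephrin-B ligands (lower panel), stacked in 1 bar per library, with libraries ordered by group. Ephb4, Efnb1 and Efnb2 have the highest means in all groups, Ephb3 and Ephb2 have lower ones, and Ephb1 and Efnb3 are near or at 0. The mean of Ephb4 is 8.41 RPKM in controls after bleomycin and 2.11 RPKM in Ephb4-CKO mice after bleomycin.

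The 5 members varied together from culture to culture. Across the 17 libraries the Pearson correlation of log2 CPM between pairs of members ran from 0.81 (Ephb2 with Ephb4) to 0.96 (Ephb3 with Efnb1), and after subtraction of the group means from 0.76 to 0.95. These points share library, culture and depth, so the values are descriptions. The spread between mice of one group was wide for each member. The biological coefficient of variation was 72.9% for Ephb4, 73.7% for Efnb1, 95.1% for Efnb2, 98.1% for Ephb3 and 120% for Ephb2, against a median of 32.9% over all genes tested.

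Marker scores of cell types, each the mean log2 CPM of a marker list, were set beside the members because the cultures differed in them. The fibroblast score was 7.56 ± 0.36 in controls after bleomycin and 3.07 ± 2.58 in Ephb4-CKO after bleomycin, and 2.48 ± 3.36 and 2.20 ± 1.9998 in the PBS groups of control and Ephb4-CKO mice. The correlation of members with it ran from 0.60 (Efnb2) to 0.81 (Ephb3) over 17 libraries and from 0.43 to 0.66 within groups. With the macrophage score it ran from -0.71 (Ephb4) to -0.48 (Ephb2), and with the endothelial score from 0.10 to 0.26. The PBS libraries that stood high in members differed in these scores. Control PBS mouse 3, the highest of its group for Ephb2, Ephb3, Ephb4, Ephb6 and Efnb1, had a fibroblast score of 7.05. Ephb4-CKO PBS mouse 2 had a fibroblast score of 0.61, an epithelial score of 7.58 and 9.25 for Msln. In control PBS mouse 1, highest of its group for Efnb2 and Efnb3, these were 2.84, 7.79 and 8.67. Of the 5 mesothelial markers listed, Msln was the only one that passed the filter. Upk3b and Lrrn4 were at 0 in 11 of 17 libraries each and Wt1 in 9. The Msln values therefore stand for that gene alone and not for mesothelial content.

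Slopes on the scores were fitted within the groups. On the fibroblast score the slopes in log2 units per unit of score were 0.41 for Ephb3 (SE 0.17, adjusted p = 0.168), 0.41 for Ephb2 (adjusted p = 0.384), 0.25 for Ephb4 (SE 0.13, adjusted p = 0.275), 0.23 for Efnb1 (adjusted p = 0.304) and 0.17 for Efnb2 (adjusted p = 0.691). None of the 5 passed with edgeR, beside 7.02% of all genes, and 1 (Ephb3) had an unadjusted p under 0.05, beside 24.3%, against 4 in DESeq2 (29.1%) and 5 in limma voom (26.6%). DESeq2 called 1 of 5 (Ephb3, 0.41, adjusted p = 0.0448, beside 15.0% of all genes), and limma voom called Ephb2 (0.61, adjusted p = 0.0296) and Ephb3 (0.49, adjusted p = 0.00894), beside 8.39%. Without Ephb4-CKO PBS mouse 2, edgeR called 3 of 5, namely Ephb3 (0.59, adjusted p = 0.00174), Efnb1 (0.36, adjusted p = 0.00305) and Ephb4 (0.34, adjusted p = 0.0397). Calls among the other pathway genes described below rose from 4 to 11 in that fit. Its share of all genes called is not given here, so the 3 calls are not read as particular to the members.

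Slopes on the macrophage score were all below 0, at -0.70 for Ephb4 (SE 0.27, adjusted p = 0.158), -0.63 for Efnb1 (adjusted p = 0.249), -0.80 for Efnb2 (adjusted p = 0.387), -0.88 for Ephb2 (adjusted p = 0.479) and -0.70 for Ephb3 (adjusted p = 0.489). None passed with edgeR, beside 5.57% of all genes, and 1 (Ephb4) had an unadjusted p under 0.05, beside 21.1%, against 5 in DESeq2 (28.5%) and 1 in limma voom (23.4%). DESeq2 called Ephb4 (-0.70, adjusted p = 0.0292, beside 14.0%) and limma voom none (6.45% of all genes). Without control bleomycin mouse 1, whose macrophage score was lowest at 3.76, edgeR called Ephb4 (-1.46, adjusted p = 0.0471) and Efnb1 (-1.51, adjusted p = 0.0487). Calls among the other pathway genes described below fell from 7 to 4 in that fit, and its share of all genes called is not given here.

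**Figure D4:**
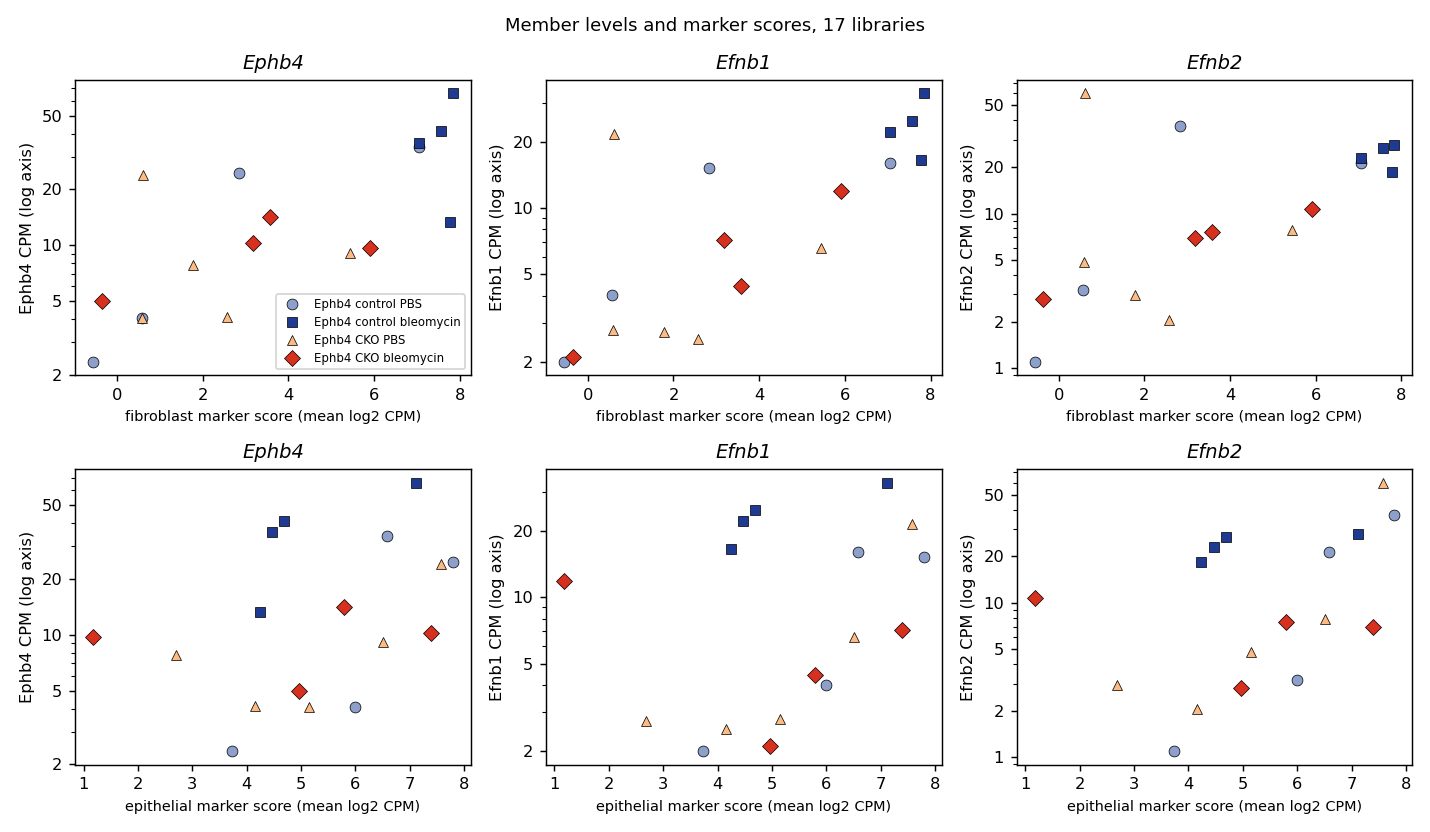
CPM of Ephb4, Efnb1 and Efnb2 (log axes) against the fibroblast marker score (upper panels) and the epithelial marker score (lower panels), each score being a mean log2 CPM, with 1 point per library. Fibroblast scores are 7.05 to 7.84 in the 4 control bleomycin libraries and 7.05 in control PBS mouse 3, which has 33.9 CPM of Ephb4. Control PBS mouse 1 and Ephb4-CKO PBS mouse 2 have high members at epithelial scores of 7.79 and 7.58 and fibroblast scores of 2.84 and 0.61, whereas Ephb4-CKO bleomycin mouse 3, at an epithelial score of 7.40, has 10.3 CPM of Ephb4 and 6.98 CPM of Efnb2.

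With both scores in one fit, an addition made after the libraries' values had been seen, the slope on the fibroblast score passed for Ephb3 (0.49, SE 0.13, adjusted p = 0.0311), 1 of 5 members beside 10.9% of all genes, and was 0.29 for Ephb4 (adjusted p = 0.0785). No slope on the epithelial score passed, beside 6.95% of all genes. The nearest were 0.34 for Ephb4 (SE 0.11, adjusted p = 0.0694), 0.46 for Ephb3 (adjusted p = 0.0869) and 0.51 for Efnb2 (adjusted p = 0.116). The Ephb4-CKO against control estimates after bleomycin were nearer 0 in fits that held the scores. With the fibroblast score as a covariate they were -0.93 for Ephb4, -1.07 for Efnb1, -1.13 for Efnb2, -0.83 for Ephb3 and -0.37 for Ephb2. With the macrophage score they were -0.88, -1.14, -0.90, -1.72 and -0.83 in the same order. With the fibroblast and epithelial scores together they were -0.54 for Ephb4, -0.52 for Efnb1 and -0.29 for Ephb3, whereas Efnb2 (0.052) and Ephb2 (1.00) turned above 0. None passed in these fits. Scores and groups were partly confounded, the control bleomycin libraries having 4 of the 5 highest fibroblast scores, and the part of cell composition in the group differences was not tested.

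The promoters of the targeted receptor and of the 2 ligands that lay nearest to it in level are shown because the members varied together. Sequences are from RefSeq on GRCm38.p6, each of 300 bases from 250 before the RefSeq start of the gene, 5′ to 3′ on the gene's strand. In capitals is GGGCGG on either strand, the core of the GC box bound by SP and KLF factors. Ephb4 is at chr5:137349859-137350158 (forward strand), Efnb2 at chr8:8661193-8661492 (reverse strand) and Efnb1 at chrX:99135811-99136110 (forward strand). The Efnb1 window ends before the GENCODE start of that gene, chrX:99136130, so it does not hold that start.
Ephb4: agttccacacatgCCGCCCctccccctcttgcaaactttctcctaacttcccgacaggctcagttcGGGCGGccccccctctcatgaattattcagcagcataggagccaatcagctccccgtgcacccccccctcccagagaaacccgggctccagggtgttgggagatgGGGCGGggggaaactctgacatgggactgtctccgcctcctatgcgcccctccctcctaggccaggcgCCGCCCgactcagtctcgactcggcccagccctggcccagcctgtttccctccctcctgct
Efnb2: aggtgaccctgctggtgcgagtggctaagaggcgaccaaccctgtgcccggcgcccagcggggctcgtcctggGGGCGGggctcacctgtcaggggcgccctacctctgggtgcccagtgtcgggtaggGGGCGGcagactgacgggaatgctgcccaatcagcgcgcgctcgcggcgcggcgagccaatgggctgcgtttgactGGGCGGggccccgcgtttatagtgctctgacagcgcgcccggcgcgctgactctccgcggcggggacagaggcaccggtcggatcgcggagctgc
Efnb1: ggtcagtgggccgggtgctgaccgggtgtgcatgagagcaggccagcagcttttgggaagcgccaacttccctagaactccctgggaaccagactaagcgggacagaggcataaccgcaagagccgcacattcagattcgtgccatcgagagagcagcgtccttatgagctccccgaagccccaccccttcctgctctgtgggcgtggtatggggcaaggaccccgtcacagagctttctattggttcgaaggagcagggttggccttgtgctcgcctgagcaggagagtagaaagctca
The Ephb4 window held 4 copies, the Efnb2 window 3 and the Efnb1 window none, although Efnb1 correlated with both (0.92 with Ephb4 and 0.94 with Efnb2). Of the other members with an entry, Ephb3 held 2, Ephb6 5, and Ephb1 and Ephb2 none. The motif stood in 35.7% of all 32851 promoters of this length. The GC content was 64.7% for Ephb4, 72.3% for Efnb2 and 59.7% for Efnb1, against a median of 52.7%. Also searched on both strands were the AP-1 letters TGACTCA, the TEAD letters GGAATG, the E-box CACGTG and the TATA letters TATAAA. Among the 7 windows, the Efnb2 window held the TEAD and the TATA letters once each, and no other match was found. Such letters are no evidence that a factor binds.

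The genes whose log2 CPM was most like that of a member over the 17 libraries included Adam12 (r = 0.955) and Rap1gap2 (0.953) for Ephb4 and Cnn2 (0.975) and Ctps (0.975) for Efnb1. They were Wwc2 (0.981), Nbea (0.976) and Farp1 (0.973) for Efnb2. For Ephb3 they were Fzd2 (0.978), Yeats2 (0.975) and Slc1a4 (0.974), and for Ephb2 they were Cbx6 (0.966), Trim59 (0.965) and Tead3 (0.961). The same correlations after subtraction of group means were 0.938 for Adam12 and 0.940 for Rap1gap2 with Ephb4.

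The other genes of the pathway were 58 in 5 lists, of which 50 passed the filter. They comprised partners that bind across the EphA and EphB classes, forward and reverse signalling, proteases that cleave receptors or ligands, and phosphatases that act on them. None of the 50 was called with edgeR or limma voom in a comparison between groups. DESeq2 called 1 (Cbl, Ephb4-CKO against control after bleomycin), beside 3.81% of all genes. Of the crossing partners, Epha4 binds ephrin-B ligands although it belongs to the EphA class. It was at 13.7 ± 4.66 CPM in controls and 13.3 ± 7.95 CPM in Ephb4-CKO after bleomycin (log2 difference -0.037, SE 1.24, adjusted p = 0.988). Efna5, an ephrin-A that binds EphB2, did not pass the filter, at 1.83 ± 0.93 and 0.336 ± 0.247 CPM in these groups. The groups did not overlap for Efna5, as for 23.1% of all genes tested. Its log2 difference without a filter was -2.47 (SE 1.11, adjusted p = 0.455).

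Of the 30 forward signalling genes tested (of 32), 3 were higher and 3 lower in Ephb4-CKO than in control after bleomycin at an unadjusted p under 0.05, together 6 of 30 beside 20.2% of all genes in either direction, and the median log2 difference was -0.08. Cbl, the ubiquitin ligase that directs activated receptors to degradation, was at 35.2 ± 8.21 CPM in controls and 69.8 ± 11.6 CPM in Ephb4-CKO. The groups did not overlap, and the log2 difference was 0.99 (SE 0.24, adjusted p = 0.187). DESeq2 called it (0.98, SE 0.25, adjusted p = 0.0124). Kalrn, an exchange factor for small GTPases that EphB receptors engage, was at 41.6 and 10.1 CPM (log2 difference -2.05, SE 0.90, adjusted p = 0.233), and Fyn, a Src family kinase, had -0.72 (adjusted p = 0.233). Neither overlapped between the groups. Cbl, Kalrn and Fyn were named for the smallest p of their list in this comparison, a choice that favours non-overlap. Of all genes tested, 23.1% did not overlap.

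In the same comparison, where 20.2% of all genes had an unadjusted p under 0.05, 1 of 7 reverse signalling genes tested (of 11) was higher and 2 were lower at that threshold, with a median log2 difference of -0.49. Sdcbp (syntenin, a PDZ adaptor of the ephrin-B tail) had 1.08 (SE 0.37, adjusted p = 0.210), Dvl2 (Dishevelled 2) -0.41 (adjusted p = 0.227) and Stat3 -0.49 (adjusted p = 0.245). Of 8 cleavage genes tested (of 9), 1 was higher and 1 lower, with a median of 0.18. Mmp2, a gelatinase, had -1.87 (SE 0.77, adjusted p = 0.223), and the γ-secretase subunits Psen2 and Psenen had 1.14 (adjusted p = 0.241) and 0.33 (adjusted p = 0.400). Of the 7 phosphatases, all tested, 2 were higher and none lower, with a median of -0.26. Ptpn1, which dephosphorylates many receptor kinases, had 0.80 (adjusted p = 0.208), Ptprj 0.79 (adjusted p = 0.220) and Ptpn11 -0.37 (adjusted p = 0.301). The median over all genes tested was 0.0093, and no gene of these 3 lists was called.

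On the marker scores, by contrast, edgeR called some of these genes. Slopes on the fibroblast score passed for 4 of 50 (Grb10, Tiam1, Itsn1 and Sdc2), all above 0, beside 7.02% of all genes. They were 0.62 for Grb10, an adaptor of receptor kinases (adjusted p = 0.00415), and 0.50 for Tiam1, a Rac exchange factor (adjusted p = 0.00492). Slopes on the macrophage score passed for 7 of 50, beside 5.57% of all genes. They were above 0 for Lyn, Vav1, Vav3, Sdcbp, Psen2 and Ptpro and below 0 for Mmp9. Sdcbp and Psen2, 2 of the genes higher in Ephb4-CKO after bleomycin at an unadjusted p under 0.05, had macrophage score slopes of 0.48 and 0.67. The macrophage score was 8.15 ± 0.33 in that group and 6.60 ± 1.90 in controls, and its part in those differences was not tested.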

How the data were processed

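Total RNA was sequenced from 17 lung fibroblast cultures. The authors trimmed reads with cutadapt, used HISAT2 (strand-specific) for alignment to GRCm38 and StringTie to estimate transcripts, and deposited whole-number counts per gene made from transcript coverage, so overlapping genes on one strand can share reads. The deposited counts were not normalized. The study's methods include a batch term, but the sequencing run of each library is not given in the sources used here. Where runs are named below, they are stretches of columns of the deposited table whose names sort upward (8 and 9 libraries). No label says that these are the sequencing runs, so a fit with runs is no adjustment for a known batch.

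Here, genes over 10 CPM in at least 2 libraries (10481 of 55421) were tested with edgeR 4.0.16 (R 4.3.3): TMM scaling, the quasi-likelihood test over all 17 libraries with 1 mean per group, and Benjamini-Hochberg adjustment at 0.05. Of the members, 5 of 8 passed. DESeq2 1.42.0, limma voom 3.58.1, other scalings, filters and covariates, and each mouse left out in turn were alternatives, and the steps were tested on simulated data. Totals were 66540022 to 120554468 counts per library, and the precision of the group differences was limited by the spread between mice. Exact permutation tests were used for the receptor shares. Gene lengths and positions came from GENCODE M21 (55154 of 55421 identifiers matched, 53642 with the same symbol), and promoters from RefSeq (7 of 8 members matched).

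Named genes were all members, the partners that cross the Eph classes, the 3 genes of each pathway list with the smallest p in Ephb4-CKO against control after bleomycin, and the 3 genes most correlated with each member, of which 1 gene is not reported here. Pathway genes called on a marker score, and genes named for a DESeq2 call, were chosen after their values were seen. Members, lists and tests were chosen with earlier results of these data known. Mouse numbers follow the order of the samples and only name the animals.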

Additional observations from a re-analysis of the deposited data

Results flagged for a closer look

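Of 32 sets of values, each of the 8 genes in each of the 4 groups, 5 held a mouse whose gap to its nearest group mate took up more of the group's range than Dixon's 95% limit. Independent, normally distributed values pass that limit about 1 time in 20. The genes here varied together and some sets were near 0, so 5 of 32 is not read as an excess. Ephb4-CKO PBS mouse 2 accounted for 3 of them, being highest for Ephb4 (23.9 CPM, next 9.09), Efnb1 (21.6 CPM, next 6.61) and Efnb2 (60.1 CPM, next 7.82). Its epithelial score of 7.58 and Msln score of 9.25 were the highest of its group, and their part in these values was not tested. Control bleomycin mouse 2, a library whose sex genes went against its label, was highest for Ephb1 (0.917 CPM, next 0.0671), and it also had the lowest Ephb4 of its group. Control PBS mouse 1 was highest for Efnb3 (0.176 CPM from 13 counts), which was at 0 in its 3 group mates, so that any value above 0 would have passed the limit there.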

How the results depend on the processing

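No member was called in a comparison between groups under any alternative run. After bleomycin, the 75 estimates of Ephb4-CKO against control for the 5 tested members changed sign in 2, both with the fibroblast and epithelial scores as covariates (Efnb2 0.052, Ephb2 1.00), and leaving out each mouse changed none of 85 and gave -2.28 to -1.63 for Ephb4 and -2.41 to -1.63 for Efnb1. Leaving out control bleomycin mouse 1 moved Ephb6 to -1.36. In controls, bleomycin against PBS turned for Efnb2 with the number series (-0.51) or the fibroblast score (-0.014) as covariate, and for Ephb2 with the fibroblast score (-0.39) or both scores (-0.26). In limma voom it was 3.48 for Ephb2 and 1.97 for Efnb2, and without control PBS mouse 1 it was 1.49 for Efnb2. After PBS, Efnb2 turned with only the groups compared (0.018), the fibroblast score (0.45), the macrophage score (0.11), both scores (0.93) and without the 3 libraries that disagreed with their labelled sex (0.029), and Ephb4 with both scores (0.29). Of all 75 estimates after PBS, 13 changed sign, and 4 of 5 members were above 0 with the fibroblast score and 5 of 5 with both scores. Within Ephb4-CKO, the Ephb4 estimate of about 0 became 0.045 (upper quartile scaling), 0.020 (edgeR's default filter), 0.055 (no filter), 0.50 (limma voom), 0.0096 (only the groups compared), 0.038 (number series), 0.20 (labelled sex), 0.061 (sorted runs of columns), 0.27 (macrophage score) and 0.056 (DESeq2 with runs). There Efnb2 became 0.30 in limma voom and Ephb2 -1.12 with the fibroblast score and -0.42 without the 3 libraries. The interaction of Ephb2 became 0.28 with both scores. Epha4 after bleomycin became 2.07 (number series), 0.11 (runs), 1.05 (macrophage score), 0.10 (DESeq2 with runs) and 0.84 (both scores). The cause of these turns was not tested.

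Leaving out each mouse in turn gave -1.82 to 0.87 for Efnb2 after PBS, and within Ephb4-CKO -1.43 to 0.67 for Efnb2, -0.60 to 1.24 for Ephb2 and -0.24 to 0.64 for Ephb4. For the interaction it gave -2.64 to 0.048 for Efnb2 and -1.73 to 0.11 for Ephb2, and for Epha4 after bleomycin -0.37 to 0.28. The Ephb4 share differed by -4.04 to 7.38 points after PBS and by 1.71 (without control bleomycin mouse 2) to 14.6 points after bleomycin. Members called on the fibroblast score numbered 0 to 3 (3 without Ephb4-CKO PBS mouse 2) and on the macrophage score 0 to 2 (2 without control bleomycin mouse 1). The shares of all genes called in these fits are not given here. Pathway genes numbered 0 (without control PBS mouse 3) to 11 (without Ephb4-CKO PBS mouse 2) and 4 to 8. Members called on the fibroblast score were 1 in DESeq2, 2 in limma voom and 1 in DESeq2 with runs, and on the macrophage score 1 in DESeq2 and 1 with labelled sex (Ephb4, -0.74, adjusted p = 0.0361). Pathway genes called on the fibroblast score were 10 of 50 in DESeq2, beside 15.0% of all genes, and 9 with runs. On the macrophage score they were 11 of 50 in DESeq2, beside 14.0%, 13 with runs and 4 without a filter. Shares of all genes with runs and without a filter are not given here. Between groups DESeq2, with or without runs, called 1 pathway gene (Cbl) after bleomycin, beside 3.81% of all genes without runs. With runs it called 1 (Dvl2, 0.53) for bleomycin in controls.

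No paired analysis was possible because the labels carry no replicate numbers. One limit is the spread between mice: with 4 or 5 per group, the 95% interval of the Ephb4 difference after bleomycin ran from -3.69 to -0.31, and members near 3 counts (Ephb1, Efnb3) allow no comparison at this depth.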
